A study of Mus musculus with 6 samples.

Results

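Expression of 10 genes of the primitive endoderm lineage was measured in 6 bulk poly(A) RNA-seq libraries of 46C mouse embryonic stem cells (mESCs). The genes were chosen by name as markers of the lineage, and all 10 were found among the 55401 genes of the deposited tables by their Ensembl identifiers. They were the transcription factor genes Gata4, Gata6, Sox17, Sox7 and Foxa2, the receptor gene Pdgfra, the endocytic adaptor gene Dab2, and the matrix genes Lama1, Sparc and Col4a1. The controls stably expressed the biotin tag alone, and the other lines stably expressed biotin-Rbbp4 (Rbbp4 OE) or biotin-Rbbp7 (Rbbp7 OE), with 2 libraries in each of the 3 groups. The study's methods describe tag-only, Rbbp4 and Rbbp7 lines made by lentivirus and puromycin selection from 46C cells that carried the BirA biotin ligase, with no picking of clones described. They do not state for each RNA-seq library that it came from these lines. All lines grew on gelatin, in serum medium with LIF, the MEK inhibitor PD0325901 and the GSK3 inhibitor Chir99021. Values are in TPM, which divides the estimate for each gene by transcript length and scales each library to a fixed total, so levels can be compared between genes. Sequencing depth is unknown, and no counting interval is given. The labels do not say whether the 2 libraries of a group came from separate cultures, so p-values measure the spread between these libraries, which may be technical.

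In the mouse blastocyst, the inner cell mass divides into the epiblast, from which mESCs are derived, and the primitive endoderm, which forms the yolk sac endoderm. GATA6 and NANOG mark the alternative fates, and FGF signalling through MEK and ERK favours the endoderm, so that medium with a MEK inhibitor holds mESCs on the epiblast side. As the endoderm forms, GATA4, SOX17 and SOX7 follow GATA6, PDGFRA appears at the surface, DAB2 sorts cargo during endocytosis, and the cells lay down a basement membrane rich in laminin and type IV collagen. RBBP4 and RBBP7 are related histone-binding proteins that serve in several chromatin complexes.

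Upstream regions were read from RefSeq because GATA factors sit at the top of the lineage. Of the 10 genes, Dab2, Foxa2, Pdgfra, Sparc and Col4a1 had an entry in the promoter table used (GRCm38.p6), with 8 start sites in all. Gata4, Sox17, Sox7 and Lama1 had none. Gata6 was not searched, since windows on its chromosome, 18, were left out for the members. The 250 bases before each start were searched on both strands for AGATAA, for AGATAG, for TGATAA and for TGATAG, forms of the GATA motif, and for GGGCGG, the GC box. At least 1 of the 4 GATA forms was present in 26.5% of all 32851 promoter windows of this length, and the GC box in 32.7%. Of the 8 member windows searched, 2 held a GATA form and 2 a GC box. The window of Pdgfra (chr5:75152001-75152250, plus strand) held neither motif, the upstream window of Dab2 (chr15:6299539-6299788, plus strand) held TGATAA, and the window of the most downstream Foxa2 start (chr2:148045465-148045714, minus strand) held AGATAA and a GC box. These 3 are shown 5′ to 3′ with the motif matches in capitals, as examples from low members with and without a match. The other Dab2 window and the other 2 Foxa2 windows held no GATA form.
Pdgfra: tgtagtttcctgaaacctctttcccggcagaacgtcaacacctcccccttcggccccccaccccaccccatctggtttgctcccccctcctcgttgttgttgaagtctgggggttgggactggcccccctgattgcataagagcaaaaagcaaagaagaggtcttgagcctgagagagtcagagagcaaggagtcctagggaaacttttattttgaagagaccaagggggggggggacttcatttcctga
Dab2: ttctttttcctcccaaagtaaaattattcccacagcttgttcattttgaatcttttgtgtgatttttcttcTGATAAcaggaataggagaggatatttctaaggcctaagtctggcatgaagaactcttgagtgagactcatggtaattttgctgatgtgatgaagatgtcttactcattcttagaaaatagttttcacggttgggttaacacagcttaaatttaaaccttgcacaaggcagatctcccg
Foxa2: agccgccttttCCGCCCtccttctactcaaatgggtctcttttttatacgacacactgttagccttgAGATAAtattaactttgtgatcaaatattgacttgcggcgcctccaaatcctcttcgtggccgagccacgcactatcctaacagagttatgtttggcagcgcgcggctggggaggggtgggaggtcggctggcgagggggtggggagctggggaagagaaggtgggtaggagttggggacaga

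A match is a description of the letters and does not show binding. The ratio of observed to expected CpG was 0.22 in the Pdgfra window, 0.24 in the Dab2 window shown, 0.73 in the Foxa2 window shown, 0.76 in the other Dab2 window, and 0.73 and 0.38 in the other Foxa2 windows, against a median of 0.37 over all windows. The window of Sparc, the most abundant member, held none of these motifs and also had a ratio of 0.22. That window lay inside the annotated gene and overlapped Sparc exons by up to 210 bases, so the region before the annotated 5′ end of Sparc was not read. The window of Col4a1 also held none of the motifs and had a ratio of 0.9. All 250 bases of that window lay in an annotated exon of Col4a2, and the other Dab2 window overlapped a Dab2 exon by 150 bases.

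Before the members were compared, the libraries were examined. Rbbp4 was 147 TPM ± 0.693 (SD, n = 2) in the controls but 271 TPM ± 0.870 (SD, n = 2) in the Rbbp4 OE pair, and Rbbp7 was 238 TPM ± 0.997 (SD, n = 2) in the controls but 736 TPM ± 16.5 (SD, n = 2) in the Rbbp7 OE pair, so each line matched its label. In 2 libraries, genes of other cell types were present that were near 0 elsewhere. Counting protein-coding genes with at least 2 TPM and over 10 times the level of every other library (each taken as at least 0.1 TPM), Rbbp4 OE replicate 2 had 60 such genes and Rbbp7 OE replicate 1 had 43, whereas the other 4 libraries had 0 to 4. None of the 10 primitive endoderm genes was among them, but most could not have been. The transcription factor genes and Pdgfra never reached 2 TPM, and the matrix genes were present in every library. Dab2 was at 2.01 TPM in Rbbp7 OE replicate 1 but at 0.55 TPM in control replicate 2. Their absence from the count therefore does not show that the members were free of such RNA.

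The genes of Rbbp4 OE replicate 2 included products of the liver. Alb, the serum albumin gene, was at 87.4 TPM in this library and at 0.28 TPM or below in the others. Of the other extraembryonic endoderm genes listed for comparison, 2 that the liver also makes followed it: Apoa1, an apolipoprotein gene, was at 42.8 TPM there and at 0.78 TPM or below elsewhere, and Ttr, the transthyretin gene, was at 4.64 TPM there and at 0.09 TPM or below elsewhere. The genes of Rbbp7 OE replicate 1 included mesenchymal ones, such as Bgn, a matrix proteoglycan gene, at 30.9 TPM against 0.42 TPM or below, and Col3a1, a fibrillar collagen gene, at 6.39 TPM against 0.06 TPM or below. The 8 fibroblast markers summed to 15.7 TPM in that library and to 4.48 to 11.7 TPM in the others, where most of the sum was Thy1, at 4.13 to 10.8 TPM. Both Rbbp7 OE libraries were highest for Col1a1, at 0.81 and 0.86 TPM against 0.46 TPM or below. The same held for Col1a2, at 1.3 and 0.79 TPM against 0.11 TPM or below. Of these markers, Lum, Postn and Fap were listed at 0 in all 6 libraries. The part of this RNA in the members' levels was not tested, and the estimates for Lama1 and Sparc and for the genes past a rule in Rbbp4 OE are also given without both libraries. That fit is left with 1 residual degree of freedom, and in it the overexpressed Rbbp4 itself had an adjusted p of 0.266 by limma in Rbbp4 OE, so its estimates rather than its p-values are informative.

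**Figure D1:**
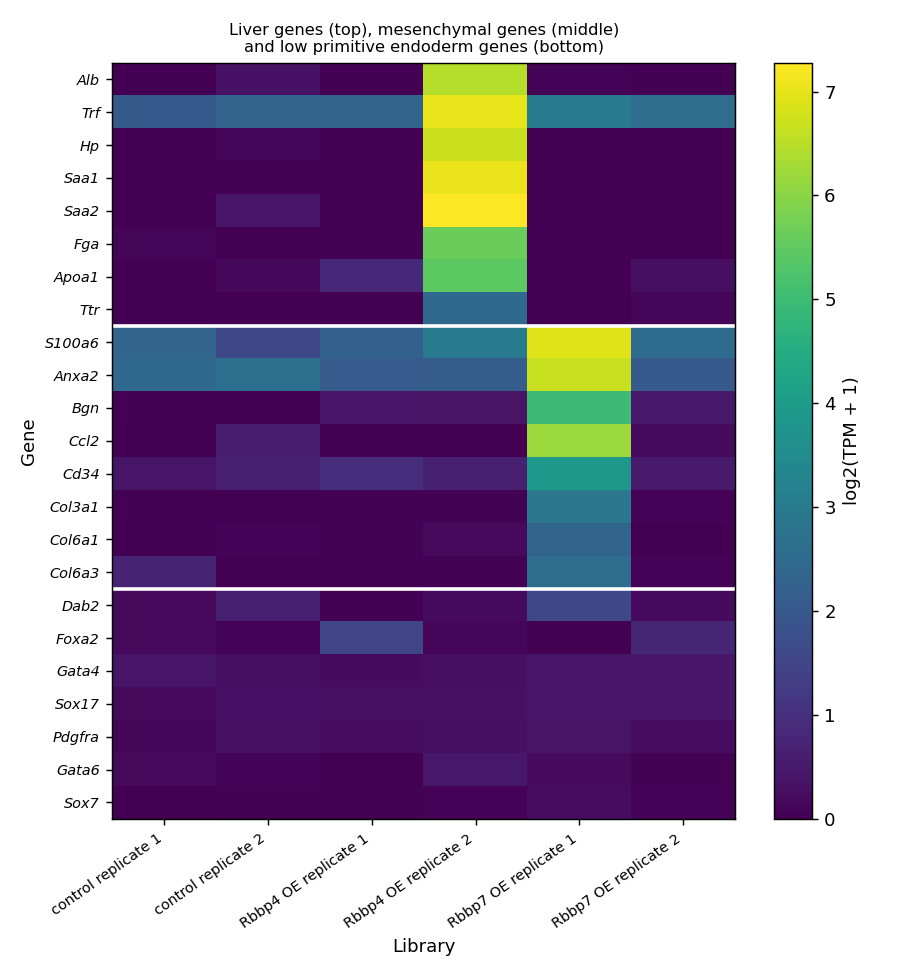
Expression as log2(TPM + 1), shown by colour, of 8 liver genes, 8 mesenchymal genes and the 7 primitive endoderm genes of lowest level (rows) in the 6 libraries (columns). Rbbp4 OE replicate 2 has Alb at 87.4 TPM and Rbbp7 OE replicate 1 has Bgn at 30.9 TPM, while Foxa2 and Dab2 are highest in Rbbp4 OE replicate 1 and in Rbbp7 OE replicate 1, respectively. The liver and mesenchymal genes were picked from their values.

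The members fell into matrix genes that were present in every library and regulators that were near 0. The 10 genes together reached 169 to 223 TPM per library, and Sparc and Lama1 made up 97.3% to 98.7% of that sum. The 5 transcription factor genes together gave 0.62 to 2.3 TPM. By contrast, the 10 epiblast and mESC factors, which mark the cells the label names, were at 26.7 TPM or more in every library, with Pou5f1 highest at a mean of 1641 TPM. Pou5f1 has processed pseudogenes that can share reads with it, so its level is uncertain to that extent. Of the primitive endoderm genes, 3 of 10 had at least 1 TPM in all 6 libraries and 5 were under 1 TPM in all of them, so the defining factors of the lineage were near 0 in cells labelled as mESCs. In these bulk samples, fewer cells with a transcript and less of it per cell cannot be told apart.

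**Figure D2:**
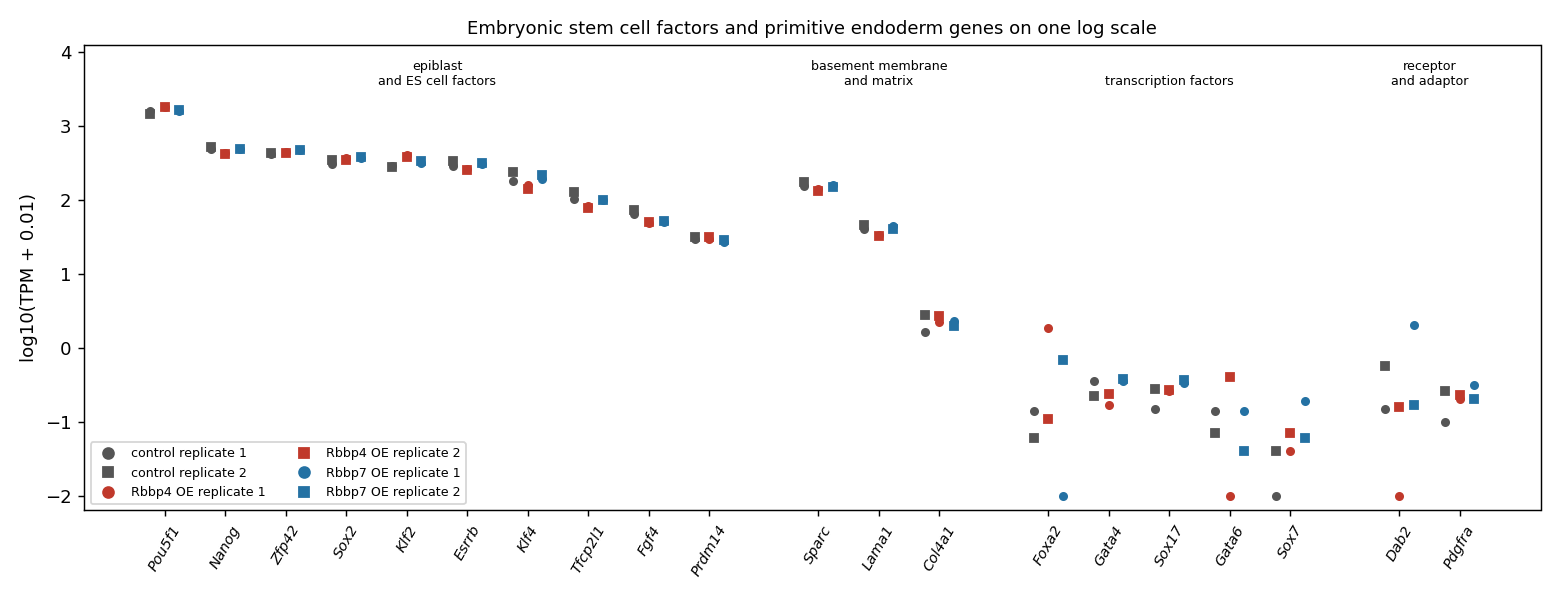
Expression of epiblast and mESC factors and of the 10 primitive endoderm genes in each library, as log10(TPM + 0.01); each point is 1 library, coloured by group and shaped by replicate. The mESC factors lie at 26.7 TPM or more, Sparc and Lama1 lie within their range, and the transcription factor genes lie at or below 1.86 TPM.

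In order of mean level, the members were Sparc, Lama1, Col4a1, Dab2, Foxa2, Gata4, Sox17, Pdgfra, Gata6 and Sox7. Sparc and Lama1 were each separated from the next gene in all libraries. The lowest value of Col4a1, 1.64 TPM, was under the highest of Dab2, 2.01 TPM, but within each library Col4a1 was above every member below it in the order. From Dab2 downward, the ranges of neighbours in the order overlapped, so their order is not resolved. The places of Dab2 and Foxa2 above Gata4 each rested on single libraries, since their medians of 0.155 and 0.115 TPM were below the median of Gata4, at 0.285 TPM.

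Among the transcription factors, Gata6 (ENSMUSG00000005836.10, GRCm38 chromosome 18, 11052064 to 11085635), the earliest of the lineage factors, was at 0.13 and 0.06 TPM in the controls, at a listed 0 and 0.39 TPM in the Rbbp4 OE pair and at 0.13 and 0.03 TPM in the Rbbp7 OE pair. The highest value was that of Rbbp4 OE replicate 2, the library with liver genes, and the other Rbbp4 OE library was the lowest. Gata4 (ENSMUSG00000021944.15, chromosome 14, 63198922 to 63271692), a zinc finger factor of endoderm and heart, was at 0.34 and 0.21 TPM in the controls, at 0.16 and 0.23 TPM in the Rbbp4 OE pair and at 0.35 and 0.37 TPM in the Rbbp7 OE pair. Its Rbbp7 OE values were above those of the other libraries by at least 0.01 TPM, which is the smallest step of the files.

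Sox17 and Sox7 encode related SOX factors of the endoderm. Sox17 (ENSMUSG00000025902.13, chromosome 1, 4490931 to 4497354) was at 0.14 and 0.27 TPM in the controls, at 0.25 and 0.26 TPM in the Rbbp4 OE pair and at 0.32 and 0.36 TPM in the Rbbp7 OE pair. Sox7 (ENSMUSG00000063060.6, chromosome 14, 63943673 to 63950732) was the lowest member, at a listed 0 and 0.03 TPM in the controls, at 0.03 and 0.06 TPM in the Rbbp4 OE pair and at 0.18 and 0.05 TPM in the Rbbp7 OE pair. For Sox17 the Rbbp7 OE libraries lay above all others, and for Sox7 the Rbbp7 OE and Rbbp4 OE libraries overlapped.

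Foxa2 (ENSMUSG00000037025.11, chromosome 2, 148042877 to 148046969), a forkhead factor of visceral and definitive endoderm, varied widely within groups. It was at 0.13 and 0.05 TPM in the controls, at 1.86 and 0.10 TPM in the Rbbp4 OE pair and at a listed 0 and 0.67 TPM in the Rbbp7 OE pair. The high libraries were replicate 1 of Rbbp4 OE and replicate 2 of Rbbp7 OE, which are not the libraries with liver or mesenchymal genes. The groups overlapped in every comparison.

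The receptor and the adaptor were also low. Pdgfra (ENSMUSG00000029231.15, chromosome 5, 75152292 to 75198215), the PDGF receptor of the lineage, was at 0.09 and 0.25 TPM in the controls, at 0.19 and 0.22 TPM in the Rbbp4 OE pair and at 0.30 and 0.19 TPM in the Rbbp7 OE pair. Its 3 groups overlapped. Dab2 (ENSMUSG00000022150.16, chromosome 15, 6299788 to 6440712) was at 0.14 and 0.55 TPM in the controls, at a listed 0 and 0.15 TPM in the Rbbp4 OE pair and at 2.01 and 0.16 TPM in the Rbbp7 OE pair. The value of 2.01 TPM was in Rbbp7 OE replicate 1, the library with mesenchymal genes, and the other Rbbp7 OE library was within the range of the controls.

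Summed over Gata4, Gata6, Sox17, Sox7 and Pdgfra, the level was 0.70 and 0.82 TPM in the controls, 0.63 and 1.16 TPM in the Rbbp4 OE pair and 1.28 and 1.00 TPM in the Rbbp7 OE pair. With Foxa2 and Dab2 added, the sums were 0.97 and 1.42 TPM, 2.49 and 1.41 TPM, and 3.29 and 1.83 TPM in the same order. The sum of 7 was highest in Rbbp7 OE replicate 1, through Dab2, and next highest in Rbbp4 OE replicate 1, through Foxa2.

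**Figure D3:**
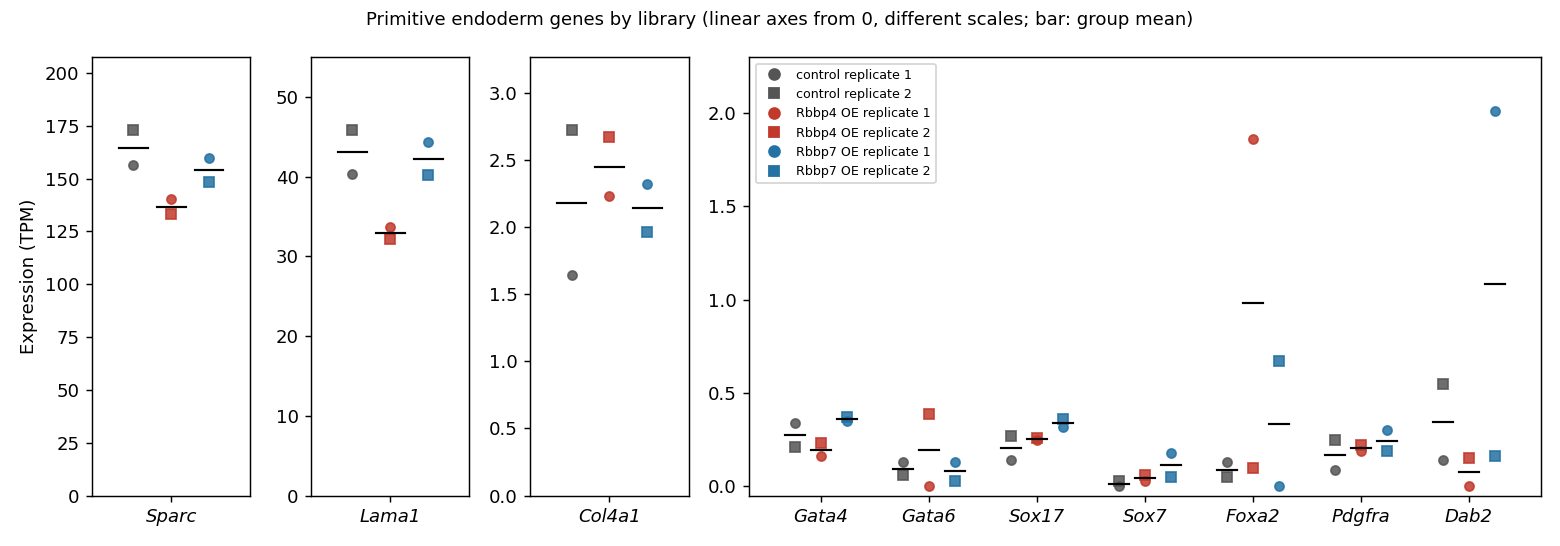
Expression in TPM of the 10 primitive endoderm genes in each library (points, coloured by group and shaped by replicate) with the group mean (bar, n = 2); the axes are linear and start at 0, apart from a small margin below 0 in the panel of low genes. Both Rbbp4 OE libraries lie below all others for Sparc and Lama1, and the values of 1.86 TPM for Foxa2 and 2.01 TPM for Dab2 are each from 1 library.

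The matrix genes made up nearly all of the signal. Sparc (ENSMUSG00000018593.13, chromosome 11, 55394500 to 55423183), which encodes a collagen-binding matrix glycoprotein, was at 156 and 173 TPM in the controls, at 140 and 133 TPM in the Rbbp4 OE pair and at 160 and 149 TPM in the Rbbp7 OE pair. Lama1 (ENSMUSG00000032796.8, chromosome 17, 67697259 to 67822647), the laminin alpha chain of early basement membranes, was at 40.3 and 45.8 TPM in the controls, at 33.6 and 32.2 TPM in the Rbbp4 OE pair and at 44.3 and 40.2 TPM in the Rbbp7 OE pair. For both genes the Rbbp4 OE libraries lay below all 4 other libraries, and the control and Rbbp7 OE libraries overlapped. The share of all genes with this pattern was not taken.

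Col4a1 (ENSMUSG00000031502.11, chromosome 8, 11198423 to 11312826), a type IV collagen chain, was far lower, at 1.64 and 2.72 TPM in the controls, at 2.23 and 2.67 TPM in the Rbbp4 OE pair and at 2.32 and 1.96 TPM in the Rbbp7 OE pair. The control libraries spanned all the others. Its partner chain Col4a2 starts within 21 bases of it on the opposite strand, and was at 1.13 and 1.21 TPM in the controls, at 1.35 and 1.2 TPM in the Rbbp4 OE pair and at 1.49 and 1.76 TPM in the Rbbp7 OE pair. The annotated genes overlap at their 5′ ends, and since counting by strand is not stated, reads from that stretch cannot be told apart. No member had a near-identical copy among the annotated transcripts.

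The first comparison asked whether the members changed when Rbbp4 was overexpressed. Lama1 had 32.9 TPM ± 1.03 (SD, n = 2) in Rbbp4 OE against 43.1 TPM ± 3.91 (SD, n = 2) in control, or 76.4% of the control mean, and Sparc had 137 TPM ± 5.17 (SD, n = 2) against 165 TPM ± 11.8 (SD, n = 2), or 83.1%. Neither passed the test over all genes. The log2 fold change, taken on log2(TPM + 1), was -0.38 for Lama1 (95% interval -0.61 to -0.14, adjusted p = 0.0567 by limma) and -0.26 for Sparc (95% interval -0.44 to -0.085, adjusted p = 0.0706 by limma). Of the 10 members, 4 reached the mean of 0.5 TPM set for the test, namely Lama1, Sparc, Col4a1 and Dab2, the last through 1 library. None of the 4 was called at an adjusted p under 0.01 and a fold over 2, a rule that 0.516% of the 14156 tested genes passed, and none had an adjusted p under 0.05 at any fold, which 11.4% did, 3.29% higher and 8.07% lower. Before adjustment, 2 members had a limma p under 0.05, Lama1 and Sparc, beside 4187 of the 14156 tested genes. In 2 of the 4 the groups did not overlap, both lower in Rbbp4 OE, beside 37.1% of all tested genes that were lower in this way and 20.8% that were higher. Median-of-ratios scaling moved Lama1 to -0.28 and Sparc to -0.16 (adjusted p = 0.0771 and 0.145, limma). Without both libraries that stood apart the values were -0.34 for Lama1 (adjusted p = 0.403, limma) and -0.23 for Sparc (adjusted p = 0.441, limma).

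Col4a1 had an estimate of 0.14 on the log2 scale in Rbbp4 OE (95% interval -0.42 to 0.69, adjusted p = 0.734 by limma) and Dab2 of -0.31 (95% interval -1.46 to 0.85, adjusted p = 0.709 by limma). Both intervals spanned 0 and were wide, so the direction in these genes was not resolved. Over all 10 members with no filter, most of which lay under the filter near 0 TPM, the median log2 fold change was 0.04. The median was -0.0064 over the 24675 genes above 0 TPM in at least 1 library. Over the 4 tested members alone it was -0.29, beside -0.08 over all tested genes.

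In Rbbp7 OE against control, none of the tested members passed the test, and all 4 intervals spanned 0. The log2 fold change was -0.03 for Lama1 (95% interval -0.26 to 0.21, adjusted p = 0.94 by limma), -0.09 for Sparc (95% interval -0.27 to 0.084, adjusted p = 0.594 by limma), 0.00047 for Col4a1 (95% interval -0.55 to 0.55, adjusted p = 1 by limma) and 0.49 for Dab2 (95% interval -0.66 to 1.65, adjusted p = 0.679 by limma). None of the 4 was called with limma, where 0.0353% of all tested genes were, and none had an adjusted p under 0.05, which 0.487% did (0.198% higher and 0.29% lower). Before adjustment, 0 members had a limma p under 0.05, beside 2180 of the 14156 tested genes. The median over the 10 members with no filter was 0.09, beside 0 over all genes, and over the 4 tested members it was -0.01, beside -0.0037 over all tested genes. The groups overlapped in each of the 4, beside 21.2% of tested genes that were higher without overlap and 23.4% that were lower. Among the members under the filter, the Rbbp7 OE libraries lay above both controls for Gata4, Sox17 and Sox7, at means of 0.36, 0.34 and 0.115 TPM against 0.275, 0.205 and 0.015 TPM. With no filter, their limma adjusted p was 0.748, 0.651 and 0.628. The shares just given cover tested genes only, and no share was taken over genes under the filter. For Gata4 the nearest values were 0.35 and 0.34 TPM. The estimate for Dab2 rested on Rbbp7 OE replicate 1, and without it Dab2 fell short of the level set for the test. Without both libraries that stood apart, the log2 fold change was -0.09 (adjusted p = 0.906, limma) for Lama1 and -0.15 (adjusted p = 0.829, limma) for Sparc.

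The lines were then compared with each other. Lama1 was lower in Rbbp4 OE than in Rbbp7 OE by an estimated -0.35 on the log2 scale (95% interval -0.58 to -0.12, adjusted p = 0.156 by limma), and Sparc by -0.17 (95% interval -0.35 to 0.0088, adjusted p = 0.283 by limma). Neither passed the test, so a difference between the lines was not established for either gene. None of the 4 tested members was called, beside 0.0494% of all tested genes, and none had an adjusted p under 0.05, beside 0.304% (0.177% higher and 0.127% lower). Before adjustment, 1 member, Lama1, had a limma p under 0.05, beside 2685 of the 14156 tested genes. In 3 of the 4, Lama1, Sparc and Dab2, the Rbbp4 OE libraries lay below both Rbbp7 OE libraries, beside 38.6% of all tested genes, and none above, beside 16.1%. For Dab2 the nearest values were 0.15 and 0.16 TPM, 1 step of the files apart, and the gene was tested only through the 2.01 TPM of Rbbp7 OE replicate 1, so its place in this count had no weight. Without both libraries that stood apart the values were -0.25 (adjusted p = 0.829, limma) for Lama1 and -0.08 (adjusted p = 0.895, limma) for Sparc. Both comparisons with control use the same 2 control libraries.

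The other genes of the basement membrane were read next, from a list of 8. All 8 were at 1 TPM or more in every library, and Nid2, which encodes a nidogen that links laminin to collagen, was the most abundant at a mean of 166 TPM. In Rbbp4 OE, 1 of the 8 was called. This was Serpinh1, which encodes the chaperone of collagen folding in the endoplasmic reticulum, at 22.5 and 23.7 TPM in the controls, at 52.6 and 53.4 TPM in the Rbbp4 OE pair and at 46.5 and 35.9 TPM in the Rbbp7 OE pair. It rose in Rbbp4 OE by an estimated 1.16 on the log2 scale (SE 0.13, adjusted p = 0.00884 by limma). The call at 0.01 was lost when any single library was left out, with an adjusted p of 0.0182 to 0.0911, while the log2 fold change stayed at 1.13 to 1.2. It was 1.15 in the fit without both libraries that stood apart (adjusted p = 0.300, limma). In Rbbp7 OE it had an estimate of 0.80 on the log2 scale (adjusted p = 0.0768, limma), and the difference between the lines was 0.37 (adjusted p = 0.214, limma).

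The partner chains of Lama1 in laminin, chosen after their values were seen, were at unequal levels. Lamc1, the gamma chain, was at 135 and 147 TPM in the controls, at 119 and 107 TPM in the Rbbp4 OE pair and at 132 and 127 TPM in the Rbbp7 OE pair. Lamb1, the beta chain, was at 4.01 and 4.09 TPM in the controls, at 3.29 and 3.23 TPM in the Rbbp4 OE pair and at 3.92 and 3.83 TPM in the Rbbp7 OE pair. Lama5, another alpha chain, was at 79.4 and 75.2 TPM in the controls, at 77.0 and 84.6 TPM in the Rbbp4 OE pair and at 81.3 and 80.1 TPM in the Rbbp7 OE pair, with overlapping groups in Rbbp4 OE and control. Lama1, Lamb1 and Lamc1 were lower in both Rbbp4 OE libraries than in the other 4. The share of all tested genes with this pattern was not taken, but 37.1% lay below both controls and 38.6% below both Rbbp7 OE libraries. The log2 fold change against control was -0.32 for Lamc1 (adjusted p = 0.052, limma) and -0.25 for Lamb1 (adjusted p = 0.306, limma). Across the 8 genes, 4 had Rbbp4 OE libraries below both controls and 1 above, beside 37.1% and 20.8% of all tested genes, and their median log2 fold change was -0.04, beside -0.08 over all tested genes. In Rbbp7 OE and between the lines, 0 of the 8 had a limma adjusted p under 0.05.

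**Figure D4:**
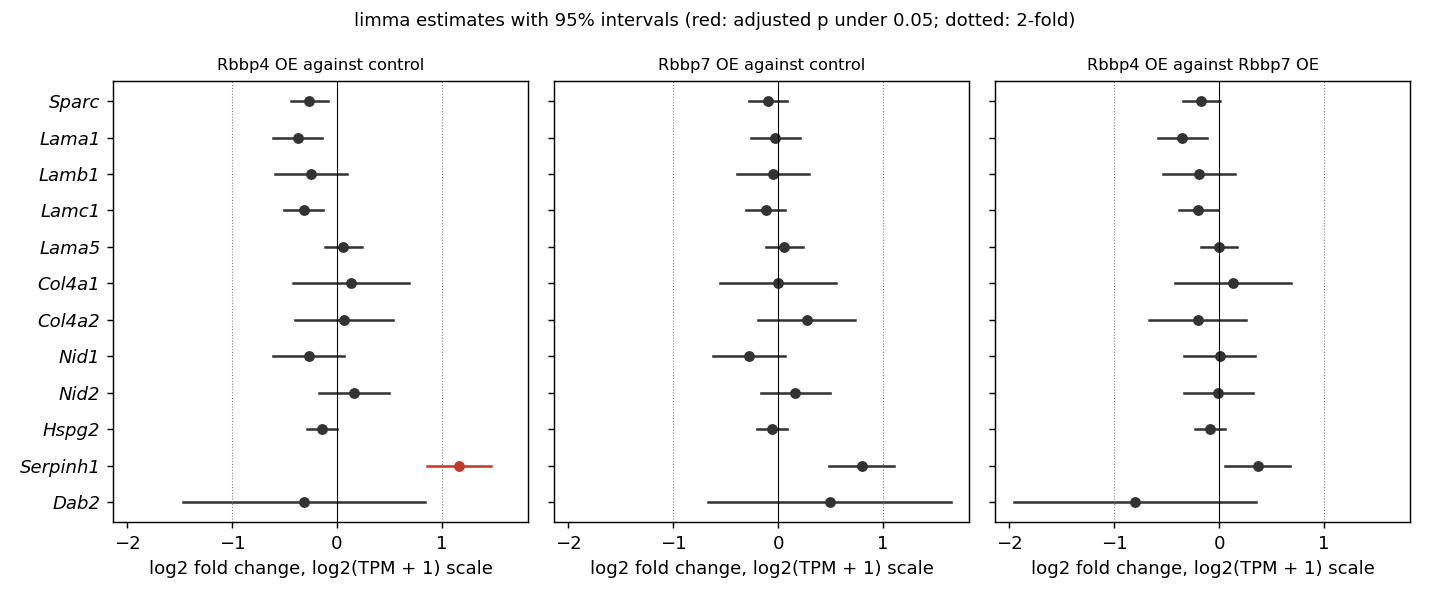
Estimated log2 fold changes on log2(TPM + 1) (points) with 95% limma intervals (lines) for the 4 tested primitive endoderm genes and 8 other basement membrane genes in the 3 comparisons. Serpinh1 in Rbbp4 OE, at 1.16, is the 1 estimate with an adjusted p under 0.05, and the intervals of Lama1, Sparc and Lamc1 in Rbbp4 OE lie below 0. Those of Lama1 and Lamc1 between the lines also lie below 0, and those of Serpinh1 lie above 0 in all 3 comparisons.

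Further genes of extraembryonic endoderm were low. Of the 14 listed, 7 were under 1 TPM in every library and 8 reached the level set for the test. Cited1, a transcriptional coregulator, was the most abundant by mean, at 11.4 and 10.01 TPM in the controls, at 8.66 and 8.97 TPM in the Rbbp4 OE pair and at 6.91 and 6.93 TPM in the Rbbp7 OE pair. Its log2 fold change was -0.25 in Rbbp4 OE (adjusted p = 0.223, limma) and -0.56 in Rbbp7 OE (adjusted p = 0.129, limma). None of the 8 had an adjusted p under 0.05 in any comparison. The summed level of the 14 was 68.2 TPM in Rbbp4 OE replicate 2 and 16.6 to 23.0 TPM in the others, through Apoa1 and Ttr.

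Pdgfa, a ligand gene of PDGFRA, was far more abundant than the receptor gene, which reached 0.30 TPM at most. It was at 54.0 and 55.4 TPM in the controls, at 65.3 and 71.3 TPM in the Rbbp4 OE pair and at 65.1 and 67.5 TPM in the Rbbp7 OE pair. It rose in Rbbp4 OE by an estimated 0.31 on the log2 scale (adjusted p = 0.0448, limma). When any single library was left out, its adjusted p in Rbbp4 OE was 0.0881 to 0.211. The fit without both libraries that stood apart gave 0.25 (adjusted p = 0.403, limma). In Rbbp7 OE it had 0.27 (adjusted p = 0.184, limma). Of the list of 4 with Pdgfb, Pdgfc and Pdgfrb, it was the 1 gene with an adjusted p under 0.05, and Pdgfrb, the related receptor, was at 1.64 to 2.67 TPM.

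In the FGF and ERK list, which holds the signal that favours the lineage, 9 of 10 genes were at 1 TPM or more in every library and 9 were tested. In Rbbp4 OE, 2 of the 9 rose and 1 fell at an adjusted p under 0.05, beside 3.29% and 8.07% of all tested genes, and none was called at the fold of 2. Fgfr1, an FGF receptor gene, rose by an estimated 0.32 on the log2 scale (adjusted p = 0.0476, limma), Spry2, a feedback inhibitor, by 0.39 (adjusted p = 0.0362, limma), and Spry4, of the same family, fell by 0.59 (adjusted p = 0.0499, limma). Etv5, an ETS factor and the most abundant of the list at a mean of 143 TPM, had -0.05 (adjusted p = 0.68, limma). Each of the 3 calls was lost when any single library was left out, at an adjusted p of up to 0.216 for Fgfr1, 0.190 for Spry2 and 0.189 for Spry4. Leaving out both libraries that stood apart gave 0.29, 0.34 and -0.64 in that order (adjusted p = 0.408, 0.386 and 0.375, limma). In Rbbp7 OE none had an adjusted p under 0.05.

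The epiblast and mESC factors were compared as the other side of the fate choice. In Rbbp4 OE, 2 of the 10 rose and 3 fell at an adjusted p under 0.05, where 3.29% and 8.07% of all tested genes did, and none was called at the fold of 2. Klf2 rose by 0.48 (adjusted p = 0.00884, limma) and Pou5f1 by 0.25 (adjusted p = 0.0334, limma). Tfcp2l1, Fgf4 and Nanog fell by 0.52, 0.45 and 0.23 (adjusted p = 0.033, 0.0255 and 0.0393, limma). Pou5f1, Tfcp2l1, Fgf4 and Nanog stayed under 0.05 only without control replicate 1, and otherwise reached 0.187, 0.180, 0.147 and 0.199 when single libraries were left out, while Klf2 was lost without either Rbbp4 OE library, at up to 0.0850. Without both libraries that stood apart, the estimates were 0.51 for Klf2, 0.26 for Pou5f1, -0.48 for Tfcp2l1, -0.45 for Fgf4 and -0.21 for Nanog, with limma adjusted p of 0.343 to 0.411. Fgf4, the ligand that drives the endoderm fate in neighbouring cells, was at 63.6 and 72.4 TPM in the controls, at 49.3 and 49.5 TPM in the Rbbp4 OE pair and at 50.5 and 52.3 TPM in the Rbbp7 OE pair. In Rbbp7 OE its log2 fold change was -0.39 (adjusted p = 0.124, limma), and none of the 10 had an adjusted p under 0.05.

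The genes most like the abundant members were taken as those with the highest Pearson correlation of log2(TPM + 1) over the 6 libraries, among 9034 other genes with a mean of at least 5 TPM. For Lama1 they were Arntl, Ddx1 and Dck, each with r = 0.996, and for Sparc they were Pde12, S100pbp and Papolg, each with r = 0.997. With 6 libraries that share their groups, such values are common, and 345 genes exceeded 0.95 for Lama1 and 310 for Sparc. The correlation between Lama1 and Sparc was 0.957.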

How the data were processed

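RNA was measured in 6 libraries, 2 in each of 3 groups taken from the labels. By the study's methods, poly(A) libraries were sequenced, trimmed with Trim_galore 0.6.7, aligned to mm10 with STAR 2.7.0d and quantified with RSEM 1.3.3 on GENCODE M25. The authors deposited TPM per gene, given in steps of 0.01, and depth is not known from such values. Genes were matched by identifier to GENCODE M21 on GRCm38 (55141 of 55401 matched), which gave positions. Values were tested as log2(TPM + 1) with limma 3.58.1 (R 4.3.3, trend, Benjamini-Hochberg) on 14156 genes with a mean of at least 0.5 TPM, all groups in 1 fit with 3 residual degrees of freedom. The study's own count test was not used, since the values are not counts. Its thresholds, an adjusted p under 0.01 and a fold over 2, were kept, with an adjusted p under 0.05 as a second rule. The step was tested on simulated data. Alternatives were other pseudocounts, filters and scalings, a replicate block, fits of 2 groups, and fits without single libraries or, chosen after seeing the data, without both libraries that stood apart. Replicate numbers did not pair the libraries (correlations of -0.03, 0.03 and -0.03). Members and gene lists were chosen with earlier results of these data known. All members were named, and of the other lists the genes past either rule, the most abundant gene and Col4a2. Further genes of the lists (other laminin chains, Apoa1, Ttr, Col1a1, Col1a2, Col3a1, Pdgfrb, Cdx2, Gata3, Eomes and markers listed at 0) were named after their values were seen. Transcripts of the members were compared with all others with blastn 2.17.0 at 95% identity and 80% coverage. Sequences are from RefSeq on GRCm38.p6.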

Additional observations from a re-analysis of the deposited data

Results flagged for a closer look

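Spry4, a feedback inhibitor of FGF signalling from the ERK list, differed between the overexpression lines. It was at 3.88 and 4.21 TPM in the controls, at 2.24 and 2.44 TPM in the Rbbp4 OE pair and at 6.74 and 6.44 TPM in the Rbbp7 OE pair, so the lines lay on opposite sides of the controls. The log2 fold change of Rbbp4 OE against Rbbp7 OE was -1.18 (adjusted p = 0.0499, limma). The adjusted p passed 0.05 in 2 of 14 alternatives and ranged from 0.0437 to 0.824.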

How the results depend on the processing

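No member was called at an adjusted p under 0.01 and a fold over 2 in any comparison or alternative. Members with an adjusted p under 0.05 in Rbbp4 OE went from 0 to 2 when genes under a mean of 5 TPM were left out (Lama1 0.0346, Sparc 0.046), where fewer genes were tested, and ranged from 0 to 1 when single libraries were left out, the 1 being Lama1 without control replicate 1 (just under 0.05). Lama1 in Rbbp4 OE was lower in all 15 alternatives, by -0.47 to -0.27, and Sparc by -0.34 to -0.16. With the replicate block their adjusted p was 0.0953 and 0.113, and Serpinh1 had 0.0237. Col4a1 in Rbbp7 OE changed sign with a pseudocount of 5 (-0.0044), quantile normalization (-0.047), without both libraries that stood apart (-0.08), and from -0.25 to 0.25 without single libraries. Without single libraries, Col4a1 in Rbbp4 OE ranged from -0.11 to 0.38, Lama1 in Rbbp7 OE from -0.12 to 0.065, and Pdgfa between the lines from -0.02 to 0.10, with -0.048 without both libraries. Fgf4 between the lines was 0.038 with median-of-ratios scaling and 0.0098 with quantile normalization, which also gave 0.0040 for Rbbp4 in Rbbp7 OE. The cause of these changes of sign was not tested. Depth is unknown, and levels near 0.01 TPM are at the step of the files.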

Other observations

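Markers of other lineages were read in the same libraries. Of 6 trophoblast markers, 4 were tested and 1 had an adjusted p under 0.05 in Rbbp4 OE, where 11.4% of all tested genes did. Tfap2c, which encodes an AP-2 factor, was at 23.1 and 26.4 TPM in the controls, at 35.01 and 32.7 TPM in the Rbbp4 OE pair and at 29.0 and 29.9 TPM in the Rbbp7 OE pair, and it rose in Rbbp4 OE by an estimated 0.44 on the log2 scale (adjusted p = 0.0385, limma). Cdx2, a trophoblast homeobox factor gene, had -0.52 (adjusted p = 0.102, limma), at 5.49 and 4.88 TPM in the controls and 2.93 and 3.7 TPM with Rbbp4. Gata3, a GATA factor gene, had -0.54 (adjusted p = 0.185, limma), at 1.29 and 0.83 TPM against 0.39 and 0.42 TPM. Eomes, the other marker tested, had 0.41 (adjusted p = 0.0822, limma), at 5.32 and 6.01 TPM in the controls against 7.59 and 8.12 TPM. Of the 4 tested markers, 2 were higher and 2 lower in Rbbp4 OE without overlap, beside 20.8% and 37.1% of all tested genes. Of 5 mesendoderm markers, 2 were tested and none had an adjusted p under 0.05. Gsc, a homeobox factor gene and the most abundant of them, was at 2.89 to 6.28 TPM, and Cer1 and Lhx1 were listed at 0 in all libraries. Of 8 fibroblast markers, 3 were tested. Thy1, a surface glycoprotein gene, was at 4.13 and 5.02 TPM in the controls, at 8.87 and 10.8 TPM in the Rbbp4 OE pair and at 7.01 and 7.04 TPM in the Rbbp7 OE pair, and it rose in Rbbp4 OE by an estimated 0.96 on the log2 scale (adjusted p = 0.0192, limma). When single libraries were left out, the adjusted p of Tfap2c was 0.0604 to 0.191 and that of Thy1 was 0.0476 to 0.133. Without both libraries that stood apart, the estimates were 0.49 and 0.83 (adjusted p = 0.366 and 0.353, limma).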
